A study of Mus musculus with 18 samples.

Results

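ESC-ASCs and ASCs are mouse pluripotent stem cells that were kept in the same medium and reached it from different starting cells. The comparison is made of 6 of the 18 RNA-seq samples of the series, the 3 labelled ESC-ASC and the 3 labelled ASC, and of the autosomal genes, which were 33458 of the 35773 genes in the count tables. ASCs (advanced pluripotent stem cells) were derived from AFSCs, primed cells that had been established from blastocysts in N2B27 with activin A and bFGF. ESC-ASCs were naive ESCs from a medium of 2i and LIF that were then passaged in the ASC medium, called ABCL, which is N2B27 with activin A, BMP4, CHIR99021 and LIF. All samples carry the label of 129S2/SvPasCrl strain and a wild type genotype. ASCs began as colonies picked for a GOF-GFP reporter, the study converted more than 1 ESC line, and the labels name neither the line nor the culture behind a sample, so p-values measure only the spread between these samples, which may be technical. ESC and AFSC samples, 3 each, were used to give the levels in the kinds of cell that ESC-ASCs and ASCs were made from.

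PolyA RNA was sequenced in bulk, so fewer cells of a type and less RNA per cell cannot be told apart. The ESC-ASC samples held 17813619 to 18071600 counts and the ASC samples 7165615 to 8148294, so depth, and any batch that went with it, cannot be told apart from the origin of the cells. ASC replicate 1 stood apart from ASC replicates 2 and 3. Ribosomal protein genes took 5.45% of its counts, against 9.39% and 8.23%, and its chi-square statistic per gene was 34.6 and 30.1 against the other ASC samples, which were at 3.40 from each other. The ESC-ASC samples were at 2.37 to 7.56 from each other, and the pairs with replicate 2 were the higher ones (6.49 and 7.56). This statistic depends on depth, so it does not rank the 2 groups. No pair agreed within sampling noise (which gives about 1). On Y-linked genes the ESC-ASC samples did not match the ESC samples: the former held 4708 to 5209 counts and the latter 33 to 59, with 35 to 84 in the ASC samples. Because the Y-linked counts did not match, the sequenced ESCs cannot be taken as the cells that were converted. The cause of the mismatch was not tested. The ESC-ASC and ASC samples differed in the same counts. A difference in sex chromosome content therefore cannot be told apart from the origin of the cells either. ESC levels below are those of the sequenced ESCs, as an example of cells in 2i and LIF and not of the parent cells.

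The markers of pluripotency fitted the labels in both groups. Levels are given as normalized counts per kb, which are counts divided by a size factor for the library and by the exonic length of the gene, and gene positions are in GRCm38. All 6 pluripotency markers examined (*Pou5f1*, *Nanog*, *Sox2*, *Sall4*, *Utf1*, *Dppa4*) had a mean level above 10 in both groups, and so had all 6 naive markers (*Esrrb*, *Tfcp2l1*, *Klf4*, *Tbx3*, *Prdm14*, *Zfp42*). The summed level of the naive markers was 2819 to 3041 in ESC-ASCs and 3808 to 4535 in ASCs, against 17.2 to 23.98 in AFSCs, and that of 4 primed markers was 76.1 to 91.3 in ESC-ASCs, 185 to 233 in ASCs and 1050 to 1463 in AFSCs. Blood markers were near 0, with *Ptprc* at 0 in all 6 samples and a summed level of the 3 markers of at most 1.86 in ESC-ASCs and 5.47 in ASCs. The sums for the 7 fibroblast markers were 50.8 to 60.7 in ESC-ASCs and 75.3 to 117 in ASCs, and those for the 5 trophoblast markers 16.1 to 22.5 and 68.3 to 94.6. The sums for 6 markers of extraembryonic endoderm, 17.1 to 20.8 and 14.1 to 22.96, overlapped, as did those for 4 neural markers, 48.4 to 63.9 and 52.3 to 105. The part of such cells in the differences below was not tested.

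Pluripotent stem cells hold a common core of transcription factors, and the signals of the medium set how much of the naive or the primed programme they run beside it. LIF acts through STAT3, BMP4 through SMAD proteins that switch on the *Id* genes, activin through another set of SMAD proteins, and CHIR99021 blocks GSK3, which lets beta-catenin activate Wnt target genes such as *Axin2*, *Sp5* and *Notum*. Cultures of mouse ESCs also contain a rare fraction of cells that transiently express genes of the 2-cell embryo, of which the clustered *Zscan4* genes are the best known. These genes are so alike that their counts cannot be assigned with certainty, because the authors let a multi-mapping read pair count for each gene it hit. The promoters show how alike they are. RefSeq (GRCm38.p6) gave promoter windows for 4 family members, all on chromosome 7, and the 240 bases below start at a shared 12-base stretch and end near or beyond the start of the gene. Capitals mark the 13 positions that are not the same in all 4.
Zscan4b, chr7:10905027-10905266, minus strand: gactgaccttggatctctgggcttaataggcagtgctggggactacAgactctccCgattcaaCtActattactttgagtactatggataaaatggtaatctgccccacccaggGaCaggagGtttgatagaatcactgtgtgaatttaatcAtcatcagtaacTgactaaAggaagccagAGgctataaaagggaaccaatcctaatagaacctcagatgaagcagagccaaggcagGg
Zscan4c, chr7:11005506-11005745, plus strand: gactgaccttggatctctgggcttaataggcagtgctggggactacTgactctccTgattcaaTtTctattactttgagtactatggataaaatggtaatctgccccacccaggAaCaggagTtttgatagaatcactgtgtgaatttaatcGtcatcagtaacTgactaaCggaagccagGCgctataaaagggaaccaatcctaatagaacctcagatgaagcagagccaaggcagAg
Zscan4d, chr7:11166159-11166398, minus strand: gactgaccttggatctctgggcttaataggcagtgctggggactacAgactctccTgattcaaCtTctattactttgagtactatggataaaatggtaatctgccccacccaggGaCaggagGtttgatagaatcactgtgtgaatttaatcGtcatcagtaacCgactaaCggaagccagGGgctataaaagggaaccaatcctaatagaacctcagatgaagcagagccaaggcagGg
Zscan4f, chr7:11397699-11397938, plus strand: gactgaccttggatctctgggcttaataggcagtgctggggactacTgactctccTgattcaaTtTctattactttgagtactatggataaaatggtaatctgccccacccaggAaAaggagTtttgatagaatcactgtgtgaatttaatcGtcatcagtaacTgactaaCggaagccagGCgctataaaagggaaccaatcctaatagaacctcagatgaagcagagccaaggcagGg
Pairs of these windows were identical at 229 to 238 of the 240 bases. A TATAAAA motif began at base 186 in each of them, and 5.48% of the 32851 RefSeq promoter windows hold this motif on either strand. They held 1 to 3 CpG dinucleotides.

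Of the 16212 autosomal genes that were tested, 3849 (23.7%) were higher in ESC-ASCs and 4265 (26.3%) were lower at an adjusted p below 0.05 (edgeR's quasi-likelihood F test, Benjamini-Hochberg). The counts of each gene list below are to be read beside these 2 shares. Large differences were mostly in 1 direction. At the thresholds the study used for pairs of cell types (the same adjusted p, a mean log2 level above 3 in at least 1 group, and a log2 fold change of more than 2 in size), 196 genes (1.21%) were higher in ESC-ASCs and 643 (3.97%) were lower. The levels of the 3 ESC-ASC and the 3 ASC samples did not overlap for 5116 genes (31.6%) that were higher and 5111 (31.5%) that were lower in ESC-ASCs, and for 196 (1.21%) and 639 (3.94%) of those past these thresholds. Without ASC replicate 1, 197 genes were higher and 586 lower, and with the ESC-ASC counts thinned to the mean ASC total the numbers were 172 and 618. Of 4 equal bins of genes by mean count, the lowest had a median log2 fold change (ESC-ASC minus ASC) of -0.60 and supplied 304 of the 643 lower genes, and the highest had 0.19 and supplied 32. Of 4 equal bins by exonic length, the shortest (up to 1972 bases) supplied 324 of the lower and 107 of the 196 higher genes. The longest supplied 75 and 19. Levels are per kb, so a short gene passes the level threshold with fewer counts.

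**Figure D1:**
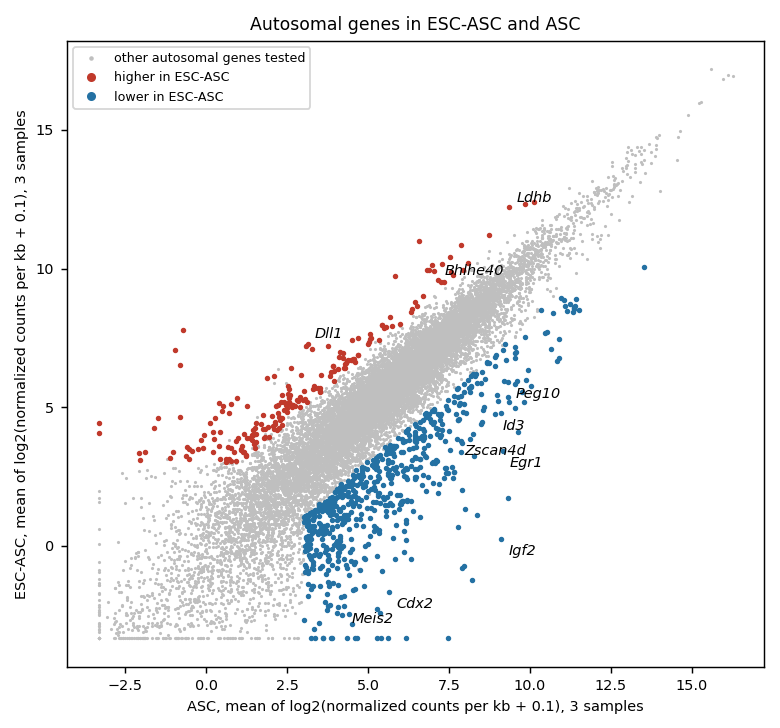
Mean log2(normalized counts per kb + 0.1) of each autosomal gene tested over the 3 ASC samples (x axis) and the 3 ESC-ASC samples (y axis). Coloured points are the 196 genes that were higher (red) and the 643 that were lower (blue) in ESC-ASCs past the thresholds for pairs, and the blue points reach further from the diagonal.

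The distance between samples gave the scale of these differences. The root mean square difference per gene on the log2 CPM scale was 1.06 ± 0.06 between ESC-ASC and ASC samples (SD over 9 pairs, which share samples), 0.29 ± 0.02 among ESC-ASC samples and 0.51 ± 0.12 among ASC samples (3 pairs each). ESC and AFSC samples, which stand for the 2 kinds of starting cell, were 1.88 ± 0.04 apart (9 pairs). ESC-ASCs were 1.42 ± 0.06 from ESCs and ASCs 1.73 ± 0.07 from AFSCs. The 2 groups in ABCL were thus closer to each other than ESC-ASCs were to the sequenced ESCs and ASCs to AFSCs, and further from each other than replicates were. No test was made, since 3 samples against 3 cannot go below p = 0.10 in an exact permutation test.

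The genes of the 2-cell stage were lower in ESC-ASCs. Of 25 tested members of the list, 24 were lower, all of them past the thresholds for pairs, and none was higher. Their median log2 fold change was -3.58, beside -0.02 over all autosomal genes tested. Several members are on the list because the study showed them for these same ASC samples, so the list is not independent evidence of the direction. Without ASC replicate 1, 21 were lower, and *Tcstv3*, *Tdpoz3* and *Zfp352* then fell below the filter on low counts. These genes were tested only because that ASC sample was high enough, so the filter fixed part of their direction. A list of genes from several groups, taken from those shown for these samples in the publication, had 27 of 45 tested members lower and 4 higher (2 without ASC replicate 1) and carries the same limit.

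The level of *Zscan4d* (chr7:11161374-11166159), a zinc finger gene of the cluster whose promoters are shown above, was 16.9, 13.1 and 13.3 in the 3 ESC-ASC samples and 218, 225 and 200.3 in the 3 ASC samples. The groups were far apart, and the log2 fold change was -3.88 ± 0.20 (SE) with an adjusted p of 1.4e-09. *Zscan4b* stood at 29.7, 27.4 and 39.9 in ESC-ASCs and at 439, 347 and 382 in ASCs, and *Zscan4e* at 46.8, 38.1 and 44.02 in ESC-ASCs and 557, 466 and 496 in ASCs. Neither gene overlapped between the groups, with log2 fold changes of -3.58 and -3.55, and the values for *Zscan4c* and *Zscan4f*, whose promoters are also shown, were -3.70 and -3.58. The 5 *Zscan4* genes in the tables together had 780 to 1109 counts in an ESC-ASC sample. That was less than the 4957 to 6106 in the shallower ASC samples but more than the 37 to 45 in ESC samples and the 0 to 10 in AFSC samples, which were shallower too. With depth taken into account, their summed level was 190 to 278 in ESC-ASCs, 2625 to 3271 in ASCs, 23.7 to 34.9 in ESCs and 0 to 6.74 in AFSCs. In the epiblast-like cell (EpiLC) samples of the series it was 147 to 235, which overlapped ESC-ASCs. ESC-ASCs thus had a low level of these transcripts and not none.

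*Tcstv3*, another gene of the 2-cell embryo, had a level of 2.97, 0.958 and 1.97 in ESC-ASCs and 82.5, 67.2 and 68.8 in ASCs (log2 fold change -5.06 ± 0.42). *Tmem92* had 3.47, 2.46 and 2.30 in ESC-ASCs and 61.7, 41.8 and 44.6 in ASCs, and both genes were at 0 in all ESC and AFSC samples. *Gm16429*, *BC061212* and *Gm12800* were lower, with log2 fold changes of -4.90, -4.30 and -3.98, again with no overlap. The exception in the list was *Eif1a*, a translation initiation factor that other cells express too. It had 626, 583 and 615 in ESC-ASCs and 502, 475 and 533 in ASCs and did not pass the test (adjusted p = 0.066), although DESeq2 called 1 member of the list higher.

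The PRAME family, which encodes leucine-rich repeat proteins of the germline and early embryo, was lower in ESC-ASCs as well, with 5 of 7 tested members lower, 4 of them past the thresholds for pairs, none higher and a median of -3.23. *Pramel7* had levels of 0.474, 0.229 and 0.707 in ESC-ASCs and 38.9, 50.6 and 39.6 in ASCs. The ASC samples were higher throughout, by a log2 fold change of -6.36 ± 0.37 in ESC-ASCs against ASCs (adjusted p = 2.1e-08). *Pramel6* and *Pramef17* had log2 fold changes of -4.96 and -4.91. All 3 of these were high in ESCs, at mean levels of 88, 67.8 and 41.4, and at 0 in AFSCs. ESC-ASCs were thus below ASCs at these 3 genes, which were on in the ESCs and off in the AFSCs. *Pramef25*, which the list of 2-cell genes also holds, was lower (log2 fold change -3.23) but was near 0 in ESCs (mean 0.39).

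**Figure D2:**
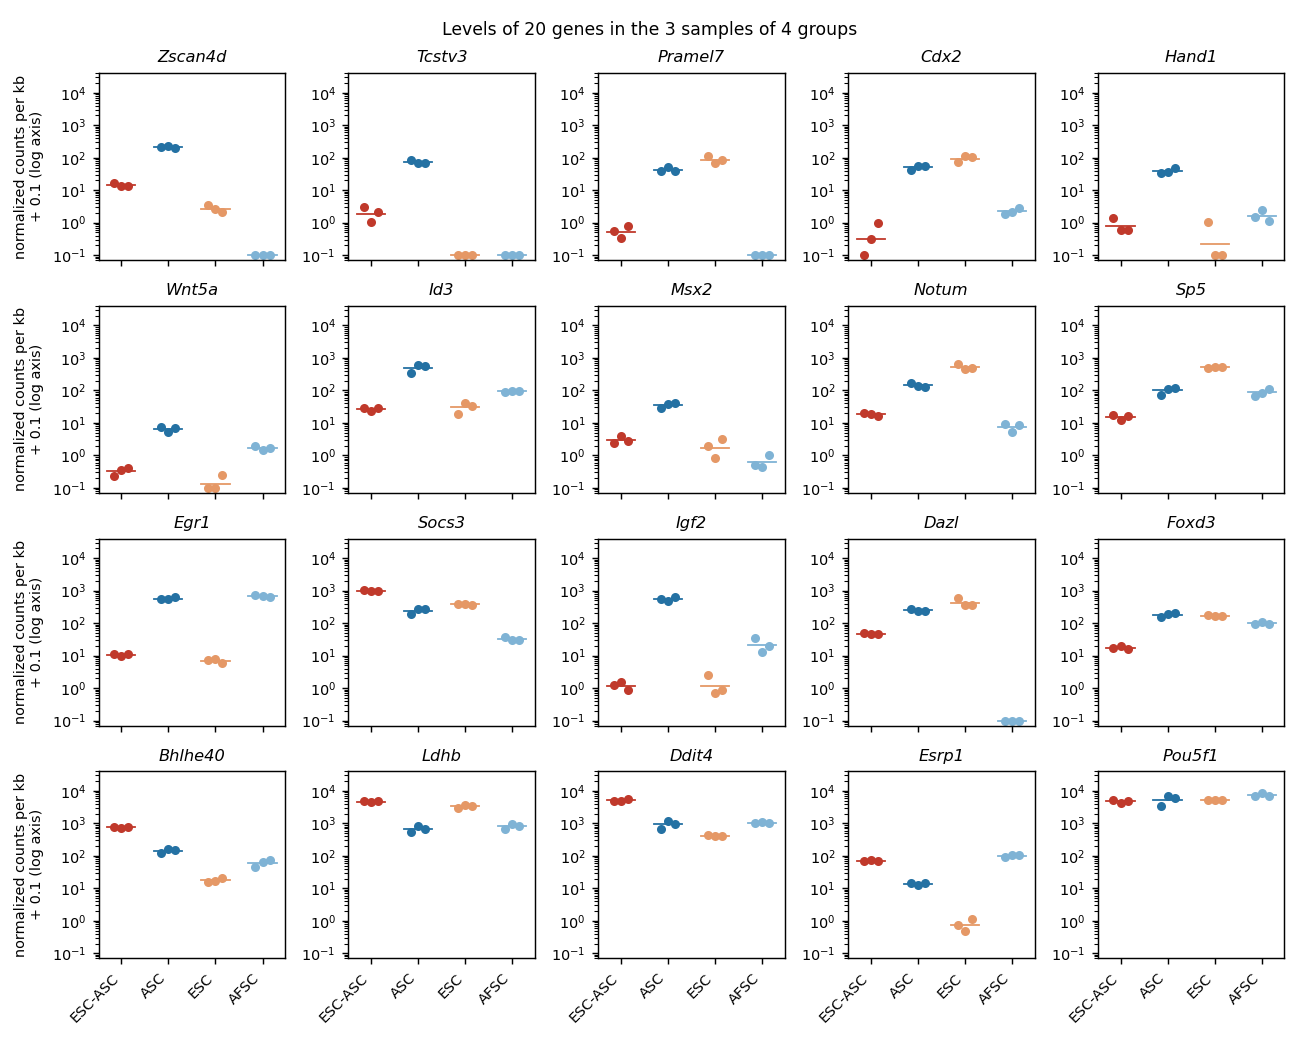
Normalized counts per kb plus 0.1, on a log axis, of 20 genes in the 3 samples each of ESC-ASC, ASC, ESC and AFSC, where points are samples and lines are geometric means. The ESC-ASC and ASC points do not overlap in any panel but the last (*Pou5f1*), and *Cdx2* and *Pramel7* are high in ASC and ESC and low in ESC-ASC.

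Genes of the primitive streak and mesoderm, which mark the onset of gastrulation, were on balance lower in ESC-ASCs. Of 20 tested members 11 were lower and 2 higher (1 with thinned counts), 6 lower and 0 higher past the thresholds for pairs, with a median of -0.78. *Cdx2* (chr5:147300805-147307270), a homeobox gene of the posterior embryo and of trophectoderm, was all but absent from ESC-ASCs at 0, 0.216 and 0.889, and was at 41.04, 55.1 and 57.2 in ASCs. The levels lay far apart, with a log2 fold change of -6.92 ± 0.44 and an adjusted p of 6.7e-10. The mean level of *Cdx2* was 94.9 in ESCs and 2.19 in AFSCs. *Hand1*, a basic helix-loop-helix factor of extraembryonic mesoderm and trophoblast, had 1.27, 0.489 and 0.503 in ESC-ASCs and 33.5, 35.4 and 47.8 in ASCs. Its log2 fold change was -5.58 ± 0.46, and its levels in ESCs and AFSCs were low too, with means of 0.329 and 1.57. *Evx1*, a homeobox gene of the posterior streak, had 3 counts in all ESC-ASC samples together and levels of 12, 12.99 and 17.9 in ASCs, where it was higher by a ratio of 82.3 (95% exact interval 27.5 to 405). Genes on the opposite strand can share its counts.

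Wnt ligands and a Wnt target of this list were lower as well. *Wnt5a* had 0.129, 0.25 and 0.321 in ESC-ASCs and 7.17, 5.04 and 7.01 in ASCs, a log2 fold change of -4.68 ± 0.42, but its level was too low for the thresholds for pairs. *Wnt8a* had 1.16, 0.56 and 0.288 in ESC-ASCs and 16.7, 16.1 and 16.96 in ASCs, while its mean level in AFSCs was 897. *Cdx1*, a caudal homeobox gene that Wnt activates, was at 50.6, 35.2 and 49.1 in ESC-ASCs and 245, 460.4 and 404 in ASCs, a log2 fold change of -3.03 ± 0.21 without overlap. Not all early mesoderm genes passed the test. *Eomes* had levels of 20.7, 18.3 and 20.2 in ESC-ASCs and 17.1, 23.5 and 24.02 in ASCs, which overlapped (adjusted p = 0.59), and *Tdgf1*, the co-receptor of Nodal, had 2157, 2411 and 2109.5 in ESC-ASCs and 2745, 2087 and 1879 in ASCs (log2 fold change 0.00 ± 0.17). *T* (brachyury) was lower by a smaller amount (log2 fold change -0.79, adjusted p = 0.0083).

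The *Hox* genes, which pattern the body axis, were low in both groups and lower in ESC-ASCs. Of 39 genes, 18 passed the filter on low counts, 14 of which were lower, 7 past the thresholds for pairs, and none was higher (median -3.11). Without ASC replicate 1, 12 were lower. The filter fixed part of the direction of any gene that passed it through the 3 ASC samples alone. These numbers and the median leave out the genes that did not pass. The summed level of the 39 genes was 97.9 to 107 in ESC-ASCs, 231 to 284 in ASCs, 285 to 326 in ESCs and 25.5 to 44.2 in AFSCs. *Hoxc10* had 1.32, 0.768 and 1.58 in ESC-ASCs and 16.96, 18.5 and 17.2 in ASCs, and *Hoxa7* had 0.352, 0.34 and 0.874 in ESC-ASCs and 9.004, 12.3 and 7.63 in ASCs, with log2 fold changes of -3.78 ± 0.35 and -4.10 ± 0.41. *Hoxa10* had 3 counts in the ESC-ASC samples together and levels of 14.8, 21.9 and 14.1 in ASCs, a ratio of ASCs to ESC-ASCs of 112 (95% exact interval 37.5 to 547). *Tlx2* and *Meis2*, homeobox genes outside the clusters, showed the same contrast. *Tlx2* had no count in the 3 ESC-ASC samples and levels of 10.9, 13.8 and 11.8 in ASCs, at least 38.6-fold lower in ESC-ASCs when 3 counts over the group are taken as the floor. *Meis2*, a partner of *Hox* proteins, had 0.084, 0.162 and 0.125 in ESC-ASCs and 20.7, 18.1 and 18.4 in ASCs, with a log2 fold change of -7.15 ± 0.21. In ESCs their mean levels were 107 and 38.5.

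Of 14 trophoblast genes tested, 8 were lower and 3 higher in ESC-ASCs (median -1.13). Apart from *Cdx2* and *Hand1*, *Gata3*, a trophoblast transcription factor, had 0.127, 0 and 0.379 in ESC-ASCs and 11.1, 15.9 and 13.8 in ASCs (log2 fold change -6.11 ± 0.51). *Cited2* was lower (log2 fold change -2.29). *Krt7*, a keratin of simple epithelia and trophoblast, went the other way. It had 13.97, 11.8 and 15.7 in ESC-ASCs and 2.60, 1.62 and 1.40 in ASCs (log2 fold change 2.88 ± 0.27). The summed trophoblast markers given above, which include *Cdx2*, *Gata3* and *Krt7*, were lower in ESC-ASCs without overlap, and the part of such cells was not tested.

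More BMP pathway genes were lower than higher in ESC-ASCs, although both groups were grown with BMP4. Of 27 tested members, which include ligands, receptors and antagonists beside targets, 16 were lower, 2 were higher and 9 were not called, 7 lower and 0 higher past the thresholds for pairs, with a median of -1.38. Leaving out ASC replicate 1 gave 14 lower and 3 higher. *Id3* (chr4:136143497-136145755), an inhibitor of basic helix-loop-helix factors and a direct BMP target, had a level of 29.1, 24 and 27.8 in ESC-ASCs and of 348, 603 and 556 in ASCs. Every ASC sample was far above every ESC-ASC sample, the log2 fold change was -4.21 ± 0.22 and the adjusted p 6.2e-11. The mean level of *Id3* in ESCs, grown without BMP4, was 31.5. *Id1* had 71.04, 72.4 and 78.9 in ESC-ASCs and 222, 397 and 377 in ASCs, and *Id2* had 48.2, 50.01 and 52.6 in ESC-ASCs and 199, 213 and 238 in ASCs. Their log2 fold changes were -2.15 ± 0.25 and -2.10 ± 0.16, without overlap.

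The homeobox genes *Msx1* and *Msx2*, which BMP also induces, followed the *Id* genes. *Msx2* had 2.31, 3.87 and 2.76 in ESC-ASCs and 28.6, 39.3 and 40.5 in ASCs (log2 fold change -3.57 ± 0.30), and *Msx1* was lower (log2 fold change -2.59). *Smad6*, the feedback inhibitor of BMP signalling, had 13.1, 15.7 and 13.96 in ESC-ASCs and 71.7, 92.01 and 102 in ASCs, a log2 fold change of -2.62 ± 0.20. *Smad7*, which restrains activin and BMP signals alike, had 49.4, 52.2 and 58.5 in ESC-ASCs and 270.4, 294 and 302 in ASCs, a log2 fold change of -2.43 ± 0.13. *Smad4*, the subunit that both branches share, had 137, 134 and 143 in ESC-ASCs and 135, 137 and 139 in ASCs, and the log2 fold change of 0.02 ± 0.16 was within the spread of the replicates.

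**Figure D3:**
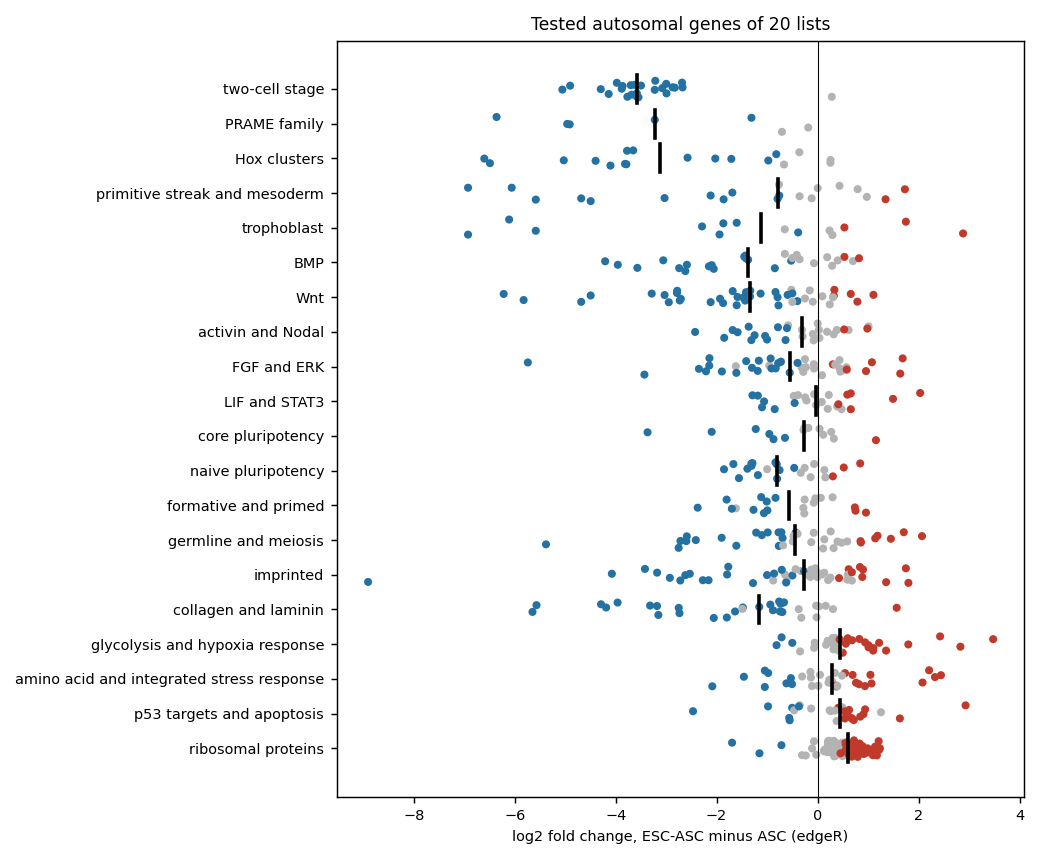
Log2 fold change, ESC-ASC minus ASC, of the tested autosomal genes of 20 gene lists, where each point is a gene, black bars are medians, red and blue mark genes past an adjusted p of 0.05 and grey the others. Medians lie below -3 for the 2-cell, PRAME and *Hox* lists and above 0.4 for the glycolysis, p53 and ribosomal protein lists.

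The Wnt list gave the same picture, with 29 of 42 tested members lower in ESC-ASCs and 5 higher, 7 lower and 0 higher past the thresholds for pairs, and a median of -1.34. When ASC replicate 1 was left out, 26 were lower and 4 higher. *Notum*, a secreted enzyme that inactivates Wnt proteins, had 20.4, 19.07 and 16.3 in ESC-ASCs and 168, 133 and 132 in ASCs. The log2 fold change was -2.95 ± 0.18 (adjusted p = 3.8e-10), and ESCs, which also receive a GSK3 inhibitor, had a mean of 538. *Sp5*, a transcription factor under direct Wnt control, had 17.1, 12.6 and 16.8 in ESC-ASCs and 74.5, 115 and 121 in ASCs, a log2 fold change of -2.73 ± 0.21. *Dkk1*, a secreted Wnt antagonist, was close to 0 in ESC-ASCs at 0, 0.604 and 0.207, against 23.1, 14.5 and 17.2 in ASCs, and *Apcdd1*, a membrane antagonist, had 10.5, 11.5 and 11.1 in ESC-ASCs and 79.8, 74.6 and 76.4 in ASCs. Neither overlapped, and the log2 fold changes were -5.82 ± 0.50 and -2.79 ± 0.26. *Axin2*, the usual readout of beta-catenin, was chosen after its values were seen and was lower by a smaller amount, at 41.8, 32.9 and 44.6 against 110.3, 102 and 112 (log2 fold change -1.43 ± 0.17).

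Of 27 activin and Nodal genes tested, 12 were lower and 2 higher, 1 of them (*Smad7*) past the thresholds for pairs, with a median of -0.31. When ASC replicate 1 was left out, 9 were lower and 2 higher. *Lefty1*, an inhibitor that Nodal induces, had 101, 103 and 93.5 in ESC-ASCs and 272, 218 and 222 in ASCs (log2 fold change -1.25 ± 0.18). *Gdf3*, a Nodal-related ligand, was lower (log2 fold change -1.31). The receptor gene *Acvr1b* had 154, 171 and 142 in ESC-ASCs and 189.7, 136 and 133 in ASCs, which overlapped (adjusted p = 0.89).

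Among genes of FGF and ERK signalling 19 of 41 were lower and 6 higher, with a median of -0.55. The largest difference was that of *Egr1* (chr18:34859823-34864984), an immediate early transcription factor that ERK induces. Its levels were 10.9, 9.70 and 11.4 in ESC-ASCs and 556, 550.0 and 619.6 in ASCs, with no overlap, and its log2 fold change was -5.74 ± 0.15 with an adjusted p of 2.8e-15. ESCs and AFSCs differed in the same direction, with a mean of 6.84 in ESCs, whose medium contains a MEK inhibitor, and 684 in AFSCs. *Myc*, the growth regulator, had 7.13, 3.35 and 4.36 in ESC-ASCs and 37.8, 58.5 and 65.4 in ASCs (log2 fold change -3.43 ± 0.24), with means of 8.63 in ESCs and 227 in AFSCs. *Dusp5* and *Dusp14*, phosphatases of MAP kinases, were lower, with log2 fold changes of -2.14 and -2.15, and *Phlda1* was lower (log2 fold change -2.21). *Dusp2*, at -0.72 (adjusted p = 0.057), and *Dusp7*, at 0.09 (adjusted p = 0.68), did not pass the test, but *Dusp2* passed it with at least 10 counts required in each of the 6 samples (adjusted p = 0.045), with only these samples fitted (0.048) and with thinned counts (-0.95, adjusted p = 0.047). In the list of MYC, G1 cyclins and CDK inhibitors 12 of 26 were lower and 6 higher. Its other large fall was that of *Mxd4*, an antagonist of MYC, at 1.19, 0.691 and 0.889 in ESC-ASCs and 8.14, 7.96 and 8.79 in ASCs (log2 fold change -3.14 ± 0.28).

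LIF and STAT3 genes were split, with 6 of 23 higher and 6 lower and a median of -0.03. These counts were near the shares over all autosomal genes tested (23.7% and 26.3%). *Socs3* (chr11:117966079-117970047), the feedback inhibitor that STAT3 induces, was higher in ESC-ASCs, at 1045, 954 and 996 against 191, 272 and 273 in ASCs. The groups did not overlap, and the log2 fold change was 2.03 ± 0.14 (adjusted p = 1.9e-09). *Stat3* itself, chosen after its values were seen, was higher too (log2 fold change 1.49). *Klf4*, a naive factor downstream of STAT3, was lower, at 458, 418 and 420.5 in ESC-ASCs and 902, 1017 and 1041 in ASCs (log2 fold change -1.18 ± 0.13).

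Core pluripotency genes were expressed in both groups. *Pou5f1* had 5126, 4391 and 5042 in ESC-ASCs and 3495, 6867 and 6270.3 in ASCs. The groups overlapped (log2 fold change -0.18 ± 0.19, adjusted p = 0.45), and without ASC replicate 1, which was the lowest, the value was -0.43 (adjusted p = 0.016). *Sox2* was within the spread as well (adjusted p = 0.20), and *Nanog* was lower (log2 fold change -0.65, adjusted p = 0.0022). Of 14 core genes tested 6 were lower and 1 higher, and without ASC replicate 1 8 were lower and 3 higher. Past the thresholds for pairs were *Foxd3* and *Dppa2*. *Foxd3*, a forkhead factor of the epiblast and neural crest, had 16.97, 19.5 and 16.4 in ESC-ASCs and 153, 189 and 210.0 in ASCs (log2 fold change -3.37 ± 0.15), and its mean was 170.2 in ESCs and 98.1 in AFSCs, so that ESC-ASCs were below both. *Dppa2*, a factor that acts at the onset of zygotic transcription, had 99.7, 91.03 and 99.4 in ESC-ASCs and 339, 445 and 466 in ASCs (log2 fold change -2.10 ± 0.14).

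The naive genes were expressed in both groups and mostly lower in ESC-ASCs, with 13 of 23 lower, 3 higher, none past the thresholds for pairs and a median of -0.80. Without ASC replicate 1 the numbers were 13 lower and 1 higher. *Prdm14*, which represses primed genes and DNA methylation, had 36.1, 33.2 and 35.9 in ESC-ASCs and 114, 126 and 142 in ASCs. *Tbx3* had 126, 129.9 and 134 in ESC-ASCs and 362, 382 and 411 in ASCs. Their log2 fold changes were -1.85 ± 0.17 and -1.56 ± 0.13, and neither overlapped. *Zfp42*, *Klf2* and *Fbxo15* were lower, with log2 fold changes of -0.76, -0.80 and -0.84. *Esrrb* was higher in ESC-ASCs, at 1057, 976 and 1087 against 631, 747 and 813 (log2 fold change 0.52 ± 0.20, adjusted p = 0.039), but lost the call when any sample but ASC replicate 3 was left out (adjusted p from 0.065 to 0.12). *Tfcp2l1*, *Dppa3* and *Tcl1* had log2 fold changes of -0.07, 0.13 and -0.33 and did not pass the test. Without ASC replicate 1, *Tcl1* was lower (log2 fold change -0.49, adjusted p = 0.015).

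More formative and primed genes were lower in ESC-ASCs than were higher. Of 20 tested, 9 were lower and 3 higher, with a median of -0.56. *Zic2* had 53.9, 43.1 and 46.3 in ESC-ASCs and 143, 169.8 and 189.7 in ASCs (log2 fold change -1.80 ± 0.13), and *Otx2* had 25.3, 22.4 and 27.8 in ESC-ASCs and 28.9, 35.2 and 27.1 in ASCs, which overlapped. *Cdh2* (N-cadherin), past the thresholds for pairs, was lower (log2 fold change -2.38). In the endoderm list 3 of 15 were higher and 4 lower, near the shares over all autosomal genes tested (23.7% and 26.3%). *Gata4* had 13.3, 11.6 and 14.4 in ESC-ASCs and 7.46, 8.25 and 8.71 in ASCs (log2 fold change 0.70 ± 0.26, adjusted p = 0.031), a call that was lost when any sample but ESC-ASC replicate 2 was left out. *Sox17* was lower (log2 fold change -1.42), and *Gata6*, *Foxa2* and *Prdm1* did not pass the test, although *Gata6*, at -0.82, passed it without ASC replicate 1 (-1.16, adjusted p = 0.0061). In the neural list 3 of 9 were higher (1 with thinned counts) and 3 lower, and in the Kruppel-like factor list 2 of 14 were higher and 6 lower, and of 5 genes of the KHDC1, DPPA5 and OOEP family 1 was higher, a call that was lost without ASC replicate 1 and with thinned ESC-ASC counts.

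*Igf2* (chr7:142650766-142666816), the imprinted growth factor gene expressed from the paternal allele, had the largest fall of all named genes. Its levels were 1.15, 1.45 and 0.791 in ESC-ASCs and 551, 498 and 617 in ASCs. All ESC-ASC samples were near the mean of 1.27 in ESCs, while the ASC samples were above the mean of 22.7 in AFSCs, and the log2 fold change was -8.90 ± 0.38 (adjusted p = 6.2e-12). *Igf2os*, which overlaps *Igf2* on the opposite strand, had 1 count in the ESC-ASC samples and levels of 12.1, 9.73 and 8.63 in ASCs, and because strand was not used its counts cannot be told from those of *Igf2*. Of 47 imprinted genes tested, 19 were lower and 9 higher, 6 lower and 0 higher past the thresholds for pairs, with a median of -0.27. Leaving out ASC replicate 1 gave 15 lower and 8 higher. *H19*, the maternally expressed neighbour of *Igf2*, was chosen after its values were seen and did not pass the test, with 68.2, 64.7 and 66.1 in ESC-ASCs and 30.02, 53.4 and 49.5 in ASCs.

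Other paternally expressed genes were also lower. *Peg10* had 59.4, 55.8 and 66.6 in ESC-ASCs and 775, 535 and 645 in ASCs (log2 fold change -3.42 ± 0.20), and *Plagl1*, a zinc finger gene, had 14.5, 13.9 and 13.2 in ESC-ASCs and 127, 88.8 and 103 in ASCs (log2 fold change -2.93 ± 0.15). *Zdbf2*, *Peg12* and *Ndn* were lower, with log2 fold changes of -2.27, -2.53 and -2.16. Expression was not split by allele, so these values do not show imprinting itself.

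Among genes of the germline and meiosis 16 of 36 were lower and 7 higher, 6 lower and 1 higher past the thresholds for pairs. *Dazl*, an RNA-binding protein gene of germ cells, had 48.8, 44.7 and 46.7 in ESC-ASCs and 275, 230.1 and 245 in ASCs. Its levels did not overlap (log2 fold change -2.41 ± 0.18), with a mean of 432 in ESCs and 0 in AFSCs. The promoter is printed here because many germline genes of this kind have CpG-rich promoters that are controlled by DNA methylation, with the CpG dinucleotides in capitals (RefSeq, GRCm38.p6, chr17:50293571-50293870, minus strand, 250 bases before to 50 after the start of the gene).
Dazl: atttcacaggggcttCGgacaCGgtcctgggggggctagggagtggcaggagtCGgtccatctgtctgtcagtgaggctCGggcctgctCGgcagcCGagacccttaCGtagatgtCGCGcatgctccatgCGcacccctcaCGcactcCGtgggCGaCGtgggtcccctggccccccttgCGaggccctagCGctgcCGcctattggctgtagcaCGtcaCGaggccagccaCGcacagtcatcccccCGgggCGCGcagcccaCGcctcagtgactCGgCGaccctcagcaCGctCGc
This window held 28 CpG dinucleotides, against a median of 20 over the tested protein-coding genes with a window (76.7% of them have one, so that comparison covers only these) and of 18 over 33 of the 36 germline genes.

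*Tuba3b*, a testis tubulin, had 1.14, 0 and 2.83 in ESC-ASCs and 43.2, 66.7 and 63.03 in ASCs (log2 fold change -5.38 ± 0.45), and near-identical copies can share its counts. *Tex19.1*, which restrains retrotransposons in germ cells, had 120.2, 125 and 128 in ESC-ASCs and 584, 799.9 and 883 in ASCs (log2 fold change -2.59 ± 0.33). *Nanos3*, *Asz1* and *Brdt* were lower, with log2 fold changes of -2.75, -2.72 and -2.60, and *Stra8* was lower too (-1.90). *Sycp3*, a component of the meiotic chromosome axis, was higher in ESC-ASCs, at 169, 169 and 172 against 48.7, 36.97 and 36.4 (log2 fold change 2.07 ± 0.34), and *Mael* was higher (log2 fold change 0.85).

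Of 20 genes of DNA methylation and demethylation 7 were lower and 5 higher, beside 26.3% and 23.7% of all autosomal genes tested. *Tet3*, a methylcytosine dioxygenase, had 2.998, 3.39 and 3.10 in ESC-ASCs and 14.5, 14.4 and 13.3 in ASCs (log2 fold change -2.14 ± 0.20). *Gadd45b*, a stress gene that has been linked to demethylation, was higher, at 716, 725 and 755 against 127, 199 and 174 (log2 fold change 2.14 ± 0.28). *Dnmt3b*, a de novo methyltransferase chosen after its values were seen, was higher (log2 fold change 0.75), and *Dnmt1*, *Dnmt3a* and *Dnmt3l* did not pass the test (adjusted p = 0.078, 0.11 and 0.11). Of 31 polycomb genes 8 were higher and 9 lower, near the shares over all autosomal genes tested (23.7% and 26.3%). None was past the thresholds for pairs.

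Genes of glycolysis and the response to hypoxia were among those that were higher in ESC-ASCs, with 18 of 35 higher and 3 lower, 3 higher and 0 lower past the thresholds for pairs, and a median of 0.45. *Ldhb* (chr6:142490249-142507957), a subunit of lactate dehydrogenase, had 4916, 4428 and 4832 in ESC-ASCs and 526, 803 and 679 in ASCs. Every ESC-ASC sample was above every ASC sample, by a log2 fold change of 2.83 ± 0.17 (adjusted p = 3.9e-10), and the mean was 3387 in ESCs and 828 in AFSCs. *Bhlhe40*, a hypoxia-induced repressor, had 773, 728 and 799 in ESC-ASCs and 119, 164 and 148 in ASCs, and its relative *Bhlhe41* had 68.01, 63.8 and 65.8 in ESC-ASCs and 2.89, 4.02 and 3.92 in ASCs. Their log2 fold changes were 2.43 ± 0.19 and 4.19 ± 0.25. The peptide hormone gene *Adm* had 138, 162 and 148 in ESC-ASCs and 14.7, 14.1 and 11.5 in ASCs (log2 fold change 3.48 ± 0.27). All 3 of these were lower in ESCs and AFSCs than in ESC-ASCs, with means of 17.8, 0.113 and 1.41 in ESCs.

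The amino acid and integrated stress response, by which cells adapt translation to starvation and protein stress, had 12 of 34 genes higher and 8 lower, with a median of 0.28. Over all autosomal genes tested the shares were 23.7% and 26.3%. *Ddit4*, an inhibitor of mTORC1, had 5067, 4978 and 5512 in ESC-ASCs and 663, 1224 and 991 in ASCs. The log2 fold change was 2.44 ± 0.17, and the mean was 419 in ESCs and 1054 in AFSCs. *Ddit3* (CHOP) had 498, 532 and 521 in ESC-ASCs and 98.3, 119 and 93.5 in ASCs, a log2 fold change of 2.32 ± 0.19. *Cebpg* and *Nupr1* were higher by log2 fold changes of 2.21 and 2.08, and *Cebpb*, which belongs to the same family of factors as *Cebpg*, was lower (log2 fold change -2.09). In the p53 and apoptosis list 13 of 28 were higher and 6 lower. Its largest rise was that of *Hrk*, a pro-apoptotic BH3-only gene, at 40.5, 45.2 and 47.6 in ESC-ASCs and 7.41, 6.04 and 4.06 in ASCs (log2 fold change 2.93 ± 0.21).

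Of the adhesion genes 6 of 25 were higher and 7 lower, near the shares over all autosomal genes tested (23.7% and 26.3%). *Esrp1*, a splicing regulator of epithelia, had 68.2, 72.2 and 68.9 in ESC-ASCs and 14.2, 13.01 and 14.8 in ASCs, and *Crb3*, a polarity gene, had 297, 308 and 301 in ESC-ASCs and 45.5, 58.4 and 49.8 in ASCs. Their log2 fold changes were 2.32 ± 0.17 and 2.57 ± 0.17. *Cdh1* (E-cadherin) overlapped between the groups (496, 616 and 465 against 955, 584 and 543, adjusted p = 0.15), and *Tjp1* differed by 0.03 ± 0.15. *Crabp2*, a retinoic acid binding protein gene, was higher (log2 fold change 2.30) in a retinoic acid list with 2 of 18 higher and 7 lower.

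The genes with the highest fold changes among those higher in ESC-ASCs belonged to none of the lists. *Dll1* (chr17:15367354-15376872), a Notch ligand, had 167, 164 and 140.4 in ESC-ASCs and 12.3, 7.88 and 6.76 in ASCs (log2 fold change 4.14 ± 0.19, adjusted p = 1.5e-11). *Calb2*, a calcium-binding protein gene, had 157, 143 and 142 in ESC-ASCs and 8.05, 5.96 and 12.6 in ASCs, and *Cpt1b*, the muscle carnitine palmitoyltransferase, 67.6, 77.9 and 62.3 in ESC-ASCs and 4.80, 4.31 and 3.58 in ASCs. For each of these genes the highest ASC sample was far below the lowest ESC-ASC sample. *Ppp1r3c*, *Myl3*, *Grin2c* and *Gsx2* rose by log2 fold changes of 4.02, 4.17, 4.34 and 3.91. *Dgkb*, with the highest value of 5.33, had 3 counts in the ASC samples together and levels of 10.5, 7.49 and 7.71 in ESC-ASCs, and *Scarna17*, a small Cajal body RNA, had 1 (log2 fold change 4.51). By absolute level the largest rises besides *Ldhb* and *Ddit4* were those of *Fabp3*, a fatty acid binding protein gene (5385, 5345 and 5611 against 937, 1349 and 1104), *Ifi30*, a lysosomal thiol reductase (2369.8, 2534 and 2237 against 440.4, 459 and 378), and the gene model *Gm44297* (1621, 2311 and 2299.8 against 68.9, 110.5 and 117). Of the 196 genes, 130 (66.3%) were higher in the 3 ESC-ASC samples than in each of the 15 other samples of the series, beside 11.9% of all autosomal genes tested. The ASC samples are among the 15, so the choice of these genes by their fold change fixes part of that share, and nothing is read from it.

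Collagen and laminin genes, which make up the extracellular matrix and basement membrane, were lower in ESC-ASCs, with 22 of 31 lower and 1 higher and a median of -1.16. Leaving out ASC replicate 1 gave 19 lower and 1 higher. *Col1a1* had 1.23, 1.49 and 0.766 in ESC-ASCs and 75.5, 48.1 and 45.6 in ASCs (log2 fold change -5.57 ± 0.46), and *Col5a1* had 10.003, 13.8 and 7.99 in ESC-ASCs and 107, 58.1 and 50.5 in ASCs (log2 fold change -2.75 ± 0.31). *Col4a2* was lower (log2 fold change -2.06). ASC replicate 1 was the highest sample for all 3, and the log2 fold changes without it were -5.30, -2.35 and -1.65. *Acta2*, a smooth muscle actin that fibroblasts also express, had no count in ESC-ASCs and levels of 15.1, 11.7 and 17.2 in ASCs, at least 52.2-fold lower. The fibronectin gene *Fn1* overlapped (979, 1324 and 817 against 1463, 854 and 868). The fibroblast list had 6 of 12 lower and 1 higher, and the summed fibroblast markers given above, which include *Col1a1*, were lower too.

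In the list of MHC class I and interferon response 15 of 36 were lower and 6 higher (median -0.53). *Erap1*, a peptidase that trims peptides for MHC class I, was lower (log2 fold change -2.57), and *H2-Q2* was higher (log2 fold change 2.02), with counts that other class I genes may share. *Gbp2*, an interferon-induced GTPase outside the list, had no count in ESC-ASCs and levels of 17.6, 12.4 and 14.4 in ASCs, at least 74.4-fold lower, with a mean of 289 in AFSCs. *Stk33*, a kinase gene, had 1 count in ESC-ASCs against levels of 23.99, 21.9 and 22.3 in ASCs. Of 33 genes of sterol and fatty acid synthesis 15 were lower and 6 higher.

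Of 77 ribosomal protein genes 43 were higher, 3 lower and 31 not called in ESC-ASCs, none past the thresholds for pairs, with a median of 0.61. Their share of counts was lowest in ASC replicate 1 (above), and without it 28 were higher and 5 lower. Replication-dependent histone genes, whose transcripts mostly lack a polyA tail, had 15 of 59 higher and 4 lower. The *Hist1h2a* genes carried the largest values, with log2 fold changes of 3.90 for *Hist1h2af* and 2.86 for *Hist1h2ap*, and near-identical copies share these counts.

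Pseudogenes and small RNA genes were part of the lower genes. Processed pseudogenes, copies of messenger RNAs that read like their parents, had a median log2 fold change of -1.12 over 82 genes, of which 20 were lower past the thresholds for pairs and 0 higher. *Rpl13-ps3* had levels of 0.81, 0.783 and 0 in ESC-ASCs and 187, 396 and 346 in ASCs, and *Rpl39-ps* had 2.85, 2.75 and 4.25 in ESC-ASCs and 672, 646 and 621 in ASCs. Both were also high outside ABCL, with means of 367 and 485 in ESCs and 384 and 471 in AFSCs. The summed level of the 82 pseudogenes was 24104 to 26662 in ESC-ASCs, 25526 to 48458 in ASCs and 51605 to 61645 in ESCs. The 182 snoRNA genes had a median of -1.01, with 26 lower and 1 higher past the thresholds. Among the 13911 protein-coding genes alone, 129 (0.927%) were higher and 454 (3.26%) lower. The largest falls by absolute level were in gene models, *Gm24270* on chromosome 9 and a group on chromosome 10 (*Gm21293*, *Gm20765*, *Gm21304* and *Gm8764*) with log2 fold changes of -3.46 and of -2.95 to -2.53. The genes of this group are near-identical copies that share counts, and replicate 3 was the highest of the ESC-ASC samples for each.

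ESCs and AFSCs gave a further comparison, which shares no sample with that of ESC-ASCs and ASCs. Between ESCs and AFSCs, 1299 autosomal genes (8.01%) were higher in ESCs and 1295 (7.99%) higher in AFSCs at the thresholds for pairs. Because the sequenced ESCs cannot be taken as the cells that were converted, the shares below do not show what ESC-ASCs kept from their parent cells. Of the 1299 genes higher in ESCs, 202 (15.6%) were higher and 634 (48.8%) were lower in ESC-ASCs than in ASCs at an adjusted p below 0.05, and of the 1295 higher in AFSCs 239 (18.5%) were higher and 452 (34.9%) lower. Over all autosomal genes these shares were 23.7% and 26.3%. The median log2 fold change between ESC-ASCs and ASCs was -0.56 for the genes higher in ESCs and -0.34 for those higher in AFSCs, while the medians between ESCs and AFSCs were 3.86 and -3.36.

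**Figure D4:**
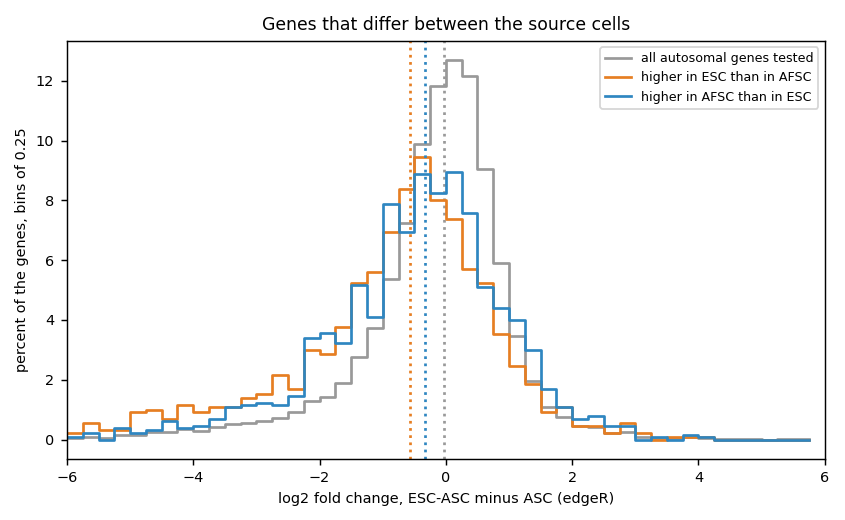
Distribution of the log2 fold change, ESC-ASC minus ASC, for all 16212 autosomal genes tested, the 1299 that were higher in ESCs than in AFSCs and the 1295 that were higher in AFSCs, as percent of the genes of each set in bins of 0.25 between -6 and 6, with dotted lines at the medians. The medians of both sets lie below that of all genes (-0.02), at -0.56 and -0.34.

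Read from the other side, of the 643 genes lower in ESC-ASCs 298 (46.3%) were higher in ESCs than in AFSCs by more than 1 on the log2 scale and 119 (18.5%) were higher in AFSCs, against 19.4% and 19.7% of all autosomal genes tested. *Cdx1*, *Cdx2*, *Dazl*, *Plagl1*, *Notum* and *Tlx2* were of the first kind, and *Egr1*, *Myc*, *Mxd4*, *Wnt8a*, *Igf2* and *Gbp2* of the second. For the 196 genes higher in ESC-ASCs the shares were 24.5% and 31.6%, with *Ldhb*, *Calb2*, *Fabp3* and *Socs3* higher in ESCs and *Esrp1*, *Dll1*, *Crb3* and *Bhlhe41* higher in AFSCs. Across the 16212 genes, which are not independent replicates, Pearson's r between the 2 sets of log2 fold changes was -0.08 and Spearman's rho -0.05. Of the 643 lower genes, 162 (25.2%) were lower in ESC-ASCs than in each of the 15 other samples, and 225 (35.0%) had ASC levels above those of all 15 samples of the other groups. Over all autosomal genes tested these shares were 8.43% and 4.45%, and here too the choice of the genes fixes part of the difference.

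The differences were spread over the autosomes. The median log2 fold change of a chromosome ranged from -0.17 on chromosome 14 (646 genes) and -0.15 on chromosome 18 (438 genes) to 0.09 on chromosome 15 (628 genes). Among genes with a mean level above 10 in both groups the medians ranged from -0.02 on chromosome 18 to 0.18 on chromosome 3. On chromosomes 14 and 18 the highest sample was ASC replicate 1, whose medians were 0.17 and 0.14 above the mean of the 6 samples, and ASC replicates 2 and 3 lay within 0.05 of that mean. The X chromosome, which was left out of the counts above, had a median of -0.91 over 641 genes, with 408 lower and 28 higher.

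**Figure D5:**
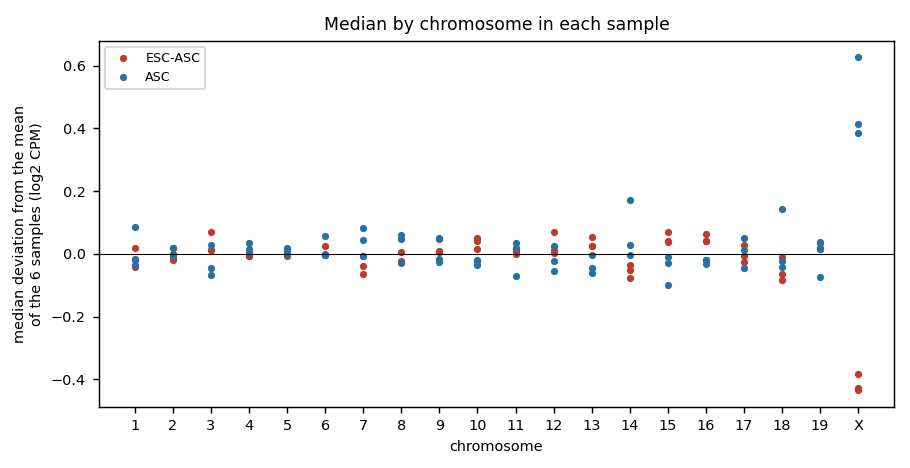
Median deviation of the tested genes of each chromosome from the mean of the 6 samples (log2 CPM) for the 3 ESC-ASC samples (red) and the 3 ASC samples (blue). Autosomal medians lie within 0.18 of 0, with ASC replicate 1 the highest on chromosomes 14 and 18, and the X chromosome is the only one drawn where the groups lie more than 0.7 apart.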

How the data were processed

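Bulk polyA RNA was sequenced as read pairs in 18 samples of 6 groups, 3 per group. The authors aligned the reads with TopHat2 to GRCm38 and counted fragments per gene of Ensembl release 86 with featureCounts 1.5.0-p1, allowing reads that hit several genes or places and, by the options stated, no strand. The deposited values are these raw counts per gene, with the exonic length. From them, the 16901 genes that reached 10 counts in 3 or more samples were kept, and a quasi-likelihood model of edgeR 4.0.16 with TMM factors was fitted to all 18 samples. P-values were adjusted by Benjamini-Hochberg over all 16901 genes, and the 16212 autosomal ones are reported. The SE is the size of the log2 fold change over the root of F. Levels are counts per exonic kb after scaling each library by its DESeq2 (1.42.0) size factor, with 0.1 added before logs. A ratio with at most 3 counts in a group has a 95% exact interval, which covers counting error only, and a group at 0 was set to a floor of 3 counts. The fit was also run on simulated counts. It recovered 70% of 100 genes with a log2 fold change of 1 in size, and 98% of 100 genes with 2. Of the genes it called there, 9.68% were false. Genes named are the 10 highest and 10 lowest fold changes past the thresholds for pairs with groups that do not overlap (gene models left out), the 5 largest rises and falls in level, up to 6 such genes per list, the genes the study showed, and the 10 expressed list members with the smallest change. Members and lists were chosen with earlier results of these data known. Alternatives are given in the closing section.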

Additional observations from a re-analysis of the deposited data

Results flagged for a closer look

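The sex chromosomes were outside the autosomal comparison. Y-linked genes held 4708 to 5209 counts in the ESC-ASC samples, against 35 to 84 in the ASC, 33 to 59 in the ESC and 842 to 1112 in the epiblast stem cell (EpiSC) samples. On the X chromosome the median over 641 genes of the log2 fold change, ESC-ASC minus ASC, was -0.91, and CPM summed to 29695 to 30012 in ESC-ASC and 45693 to 49076 in ASC samples. The sums were 23658 to 24595 in ESC, 23479 to 28410 in AFSC, 26619 to 27457 in EpiLC and 27043 to 28031 in EpiSC samples. The ASC samples were thus the ones that stood above all other groups. Both stood out as signal in data that the autosomal comparison does not use.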

How the results depend on the processing

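Requiring at least 10 counts in each of the 6 samples, which tests fewer genes, gave 87 genes higher and 366 lower in ESC-ASCs at the thresholds for pairs, and protein-coding genes alone, an alternative chosen after seeing the data, gave 129 higher. At a prior count of 0.5 the distance was 1.23 between ESC-ASC and ASC samples and 2.27 between ESC and AFSC samples, and with thinned ESC-ASC counts the latter was 1.84; the cause was not tested. Leaving out 1 sample at a time gave 3147 to 3452 genes higher and 3537 to 3889 lower, and 152 to 204 and 586 to 673 at the thresholds for pairs. Between ESCs and AFSCs it gave 1262 to 1360 genes higher in ESCs, of which 162 to 241 were higher and 558 to 682 lower in ESC-ASCs, and 1223 to 1342 higher in AFSCs, of which 198 to 258 were higher and 389 to 481 lower. The replicate numbers did not pair the samples (correlations of deviations -0.09, -0.16 and 0.15), and the replicate block gave 198 higher and 641 lower genes at the thresholds for pairs, 832 of the 839 among them. With the block 4 genes of the primitive streak list and 8 of the DNA methylation list were higher, against 2 and 5.

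Of 2114 values of the 156 named genes under alternatives, 2056 kept direction and side of the threshold, and no called gene reversed. Log2 fold changes that reversed were near 0 in the main fit, and some moved further from 0 when a sample was left out. *Fn1* was 0.0034 without the filter and 0.00293 with the replicate block, and *Foxa2* 0.126 thinned. With 10 counts in each sample *Rybp* was -0.0154, *Tdh* -0.0141, *Smad4* -0.00396 and *Tdgf1* -0.0282. Thinned, *Rybp* was -0.0314 and *Tdgf1* -0.00485. *Tdgf1* was -0.0122 with RLE factors and by DESeq2, and -0.00388 with autosomal TMM factors. Leaving out 1 sample at a time, the range was -0.0581 to 0.219 for *Acvr1b*, -0.0393 to 0.256 for *Dppa3*, -0.0082 to 0.186 for *Dusp7*, -0.179 to 0.0975 for *Fdps*, -0.246 to 0.282 for *Fn1*, -0.331 to 0.563 for *Foxa2*, -0.283 to 0.225 for *Rps21*, -0.0607 to 0.0634 for *Rybp*, -0.112 to 0.174 for *Tdgf1*, -0.0938 to 0.0769 for *Tdh*, -0.193 to 0.0488 for *Tfcp2l1*, -0.0767 to 0.127 for *Tjp1* and -0.0896 to 0.235 for *Zfp281*. The depth of the ASC samples limits what can be said of the genes with the lowest counts.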
